A study of Homo sapiens with 6 samples.

Results

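The collagen crosslinking and hydroxylation enzymes examined here are 10 genes: the 5 lysyl oxidases LOX, LOXL1, LOXL2, LOXL3 and LOXL4, the 3 lysyl hydroxylases PLOD1, PLOD2 and PLOD3, and the prolyl 4-hydroxylase alpha subunits P4HA1 and P4HA2. They were chosen by gene name, as members of enzyme families, from the 26364 gene symbols of the RNAseq table, and the difference between the conditions in these same libraries was already known when the group was chosen. All 10 were found in the table. RNAseq was performed on A673/TR/shEF cells, a derivative of the Ewing sarcoma cell line A673 that carries a doxycycline-inducible shRNA against the EWSR1::FLI1 chimeric mRNA. EWSR1::FLI1-high cells (n = 3, replicates 1 to 3) carried the construct and were labeled untreated, and EWSR1::FLI1-low cells (n = 3, replicates 1 to 3) received doxycycline at 1 µg/mL for 72 h. All cultures were kept in DMEM with 10% FBS, blasticidine and zeocin. Doxycycline was given to the EWSR1::FLI1-low cells and to no other group, so effects of the drug and of the knockdown cannot be told apart. The data come from 1 cell line. The labels call the samples clones in one place and numbered experiments in another, so p-values measure the spread between these samples only.

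Collagen chains are modified in the endoplasmic reticulum before they are secreted. Prolyl 4-hydroxylase, built from alpha subunits (P4HA) and protein disulfide isomerase (P4HB), hydroxylates proline and thereby stabilizes the triple helix, while the lysyl hydroxylases (PLOD) hydroxylate lysine. Outside the cell, lysyl oxidases, which carry copper, oxidize lysine and hydroxylysine residues so that crosslinks form between collagen molecules and in elastin. LOX, LOXL2, PLOD2, P4HA1 and P4HA2 are known targets of hypoxia-inducible factors (HIF), and matrix crosslinking is known to stiffen tumor stroma.

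Promoter sequences from RefSeq, 250 bases before to 50 bases after a gene start, were examined for 9 of the 10 genes (12 starts). Each was located in GRCh37 by its only exact match there. LOXL2, also a known HIF target, was left out. Its promoter was not searched, and the counts for these genes do not cover it. The letters ACGTG and GCGTG, the core of the element that HIF binds, were searched on both strands. Either was present in 48.4% of the 35116 promoters of the table, and in 7 of the 12 windows of these genes, which belonged to 5 of the 9 genes. The windows of LOX (its most upstream start), PLOD2, P4HA1 and P4HA2 are shown because these genes are known HIF targets whose RNA differed to very unequal extents between the conditions. They lie on the minus strand at chr5:121413905-121414204 for LOX, chr3:145878922-145879221 for PLOD2, chr10:74856575-74856874 for P4HA1 and chr5:131562735-131563034 for P4HA2. They are written 5′ to 3′ along the gene, with each match to ACGTG or GCGTG, or its reverse complement, in capitals.
LOX: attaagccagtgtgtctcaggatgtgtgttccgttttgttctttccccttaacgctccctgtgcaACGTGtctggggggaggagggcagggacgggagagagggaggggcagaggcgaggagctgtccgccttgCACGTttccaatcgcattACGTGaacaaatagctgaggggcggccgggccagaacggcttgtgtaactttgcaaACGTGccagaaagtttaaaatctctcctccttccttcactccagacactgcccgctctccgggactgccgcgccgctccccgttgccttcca
PLOD2: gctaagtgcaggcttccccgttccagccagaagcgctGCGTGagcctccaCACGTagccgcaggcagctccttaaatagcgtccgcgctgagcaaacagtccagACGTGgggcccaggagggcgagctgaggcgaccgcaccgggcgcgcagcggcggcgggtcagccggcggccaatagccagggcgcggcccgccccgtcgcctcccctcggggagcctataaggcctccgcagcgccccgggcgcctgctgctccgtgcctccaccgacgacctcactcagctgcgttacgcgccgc
P4HA1: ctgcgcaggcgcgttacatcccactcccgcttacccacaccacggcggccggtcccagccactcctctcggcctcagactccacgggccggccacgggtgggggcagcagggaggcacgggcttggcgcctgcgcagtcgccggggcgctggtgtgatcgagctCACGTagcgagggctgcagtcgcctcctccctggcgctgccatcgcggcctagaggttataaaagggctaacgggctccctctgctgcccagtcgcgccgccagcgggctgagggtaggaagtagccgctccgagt
P4HA2: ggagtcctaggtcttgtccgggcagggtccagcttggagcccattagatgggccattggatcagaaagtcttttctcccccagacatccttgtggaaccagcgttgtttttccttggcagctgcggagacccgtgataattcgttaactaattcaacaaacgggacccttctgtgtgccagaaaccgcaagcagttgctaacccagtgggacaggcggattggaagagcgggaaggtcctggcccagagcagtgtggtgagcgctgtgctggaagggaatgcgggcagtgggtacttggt
The LOX window held 4 matches, at positions -185, -116, -98 and -42 from the gene start, the PLOD2 window 3 and the P4HA1 window 1. No match was found in the P4HA2 window. Of the windows not shown, that of PLOD1 held 2 matches, 1 window of LOXL3 held 1, and the other LOX windows held 2 each. The PLOD2 and P4HA2 windows lie wholly inside the span of the annotated gene, downstream of its farthest start. Binding of HIF was not tested.

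Values are FPKM (fragments per kilobase of transcript, scaled between libraries by the authors), so that levels can be compared between genes. Between 6980361 and 16658933 reads on genes stood behind each library. The targeted transcript was examined first. FLI1, which gives the 3′ part of the fusion, was at 11.3, 12.7 and 14.2 FPKM without doxycycline and at 2.91, 4.29 and 3.68 FPKM with it (log2 fold change -1.57, standard error 0.18, adjusted p = 0.000676, limma). All 7 Ewing sarcoma markers examined (CD99, NKX2-2, NR0B1, STEAP1, PAX7, CCND1 and LIPI) were detected and lay lower in each EWSR1::FLI1-low library than in each EWSR1::FLI1-high library, and 5 of the 7 fell (adjusted p under 0.01, limma). Markers of blood, epithelial, endothelial and liver cells summed to between 1.76 and 4.0 FPKM over 8 genes in every library. EWSR1::FLI1-low replicate 1 stood apart from the other libraries. Its FPKM values summed to 255956, against 334614 to 366060 in the other libraries, and it had the highest summed level of the 8 markers. The authors' scaling did not follow the reads on genes. Reads were divided by 0.951 in this library, with 6980361 reads, and by 0.877 in EWSR1::FLI1-low replicate 2, with 8570957 reads. The part of the scaling in the low FPKM of replicate 1 was not tested.

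Of the 10 enzyme genes, 9 had a mean of at least 0.5 FPKM and entered the fit across all 15504 genes tested, and each of these 9 also exceeded 0.5 FPKM on average in EWSR1::FLI1-high cells alone. LOXL4 was below that limit. The fit called 4 of the 9 genes higher in EWSR1::FLI1-low cells (LOX, LOXL2, PLOD1 and P4HA2, adjusted p under 0.01, limma), where 4.51% of all genes tested were called higher. No gene of the 9 was called lower, with limma or with limma-voom on recovered reads, and none was lower at an unadjusted p under 0.05 in the limma fit. Of all genes tested, 3.37% were called lower. LOX, LOXL2 and P4HA2 also had a log2 fold change over 2.5, the limit used in the study, as did 0.813% of all genes tested. For 8 of the 9 genes all EWSR1::FLI1-low libraries exceeded all EWSR1::FLI1-high libraries, as for 17.5% of all genes tested, while the opposite order held for 23.6% of all genes tested and for none of the 9. Because the group was chosen with this contrast known, these counts describe the genes and nothing is read from them. The median log2 fold change of the 9 genes was 1.03, and that of all genes tested was -0.05. All log2 fold changes are on the log2(FPKM + 1) scale, which understates the difference of genes with low FPKM.

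**Figure D1:**
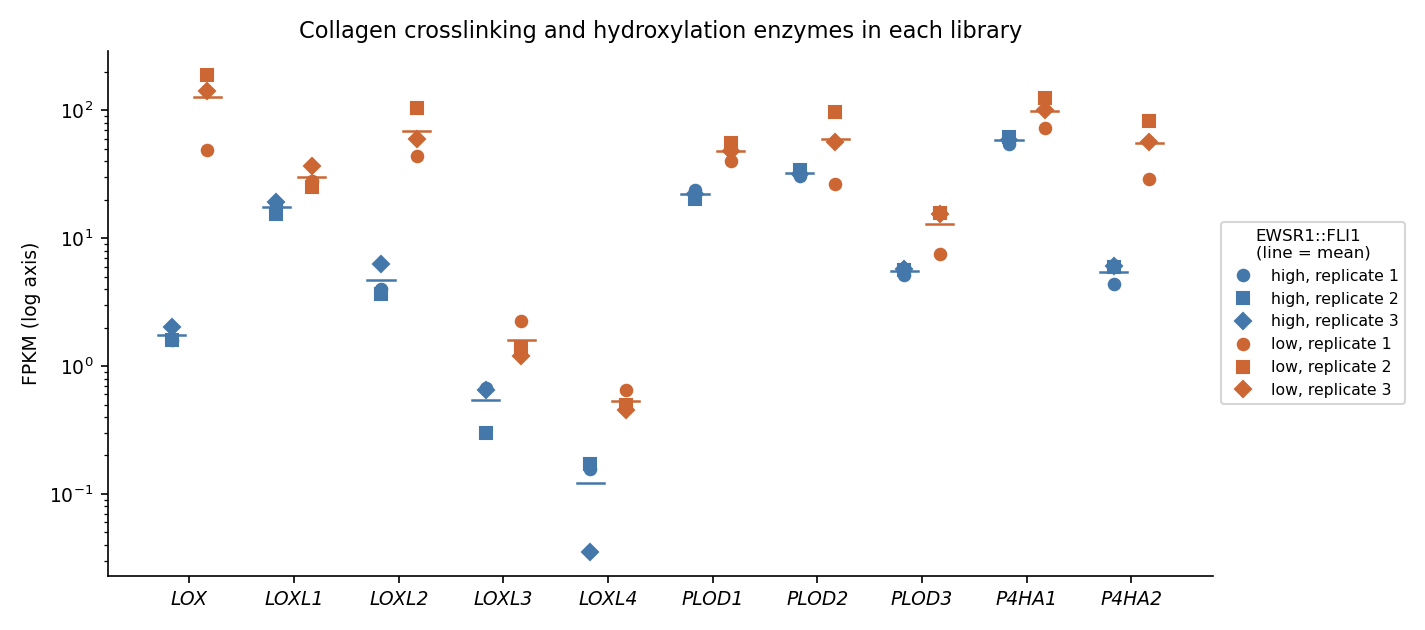
FPKM (log axis) of each enzyme gene in the 3 EWSR1::FLI1-high (blue) and 3 EWSR1::FLI1-low (orange) libraries, with the replicate number as the symbol and the group mean as a line. For 8 of the 9 genes tested (17.5% of all genes tested), and for LOXL4 with its 1 to 26 reads, each EWSR1::FLI1-low library lies above each EWSR1::FLI1-high library. For PLOD2, replicate 1 of EWSR1::FLI1-low cells (circle) lies below the EWSR1::FLI1-high libraries, an order that depends on the scaling between libraries.

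In the following, the 3 values of a group stand in the order of replicates 1, 2 and 3. LOX, the founding lysyl oxidase, was low in EWSR1::FLI1-high cells, with 1.61, 1.6 and 2.01 FPKM. In EWSR1::FLI1-low cells it reached 49.1, 191 and 143 FPKM. The groups were far apart: the lowest EWSR1::FLI1-low library was 24.4 times the highest EWSR1::FLI1-high library. Behind these values stood 91, 69 and 84 reads without doxycycline and 2355, 8439 and 12008 reads with it. The means were 1.74 ± 0.23 and 127 ± 72 FPKM (SD, n = 3 in each group), a ratio of 73.3 (log2 fold change 5.35, standard error 0.43). In bulk RNA, more cells with LOX transcripts and more transcripts per cell cannot be told apart. By its mean level, LOX moved from the 29.9th percentile of the genes tested to the 97.7th. LOX (ENSG00000113083, chromosome 5, 121398890 to 121414108, minus strand, GRCh37) shares 12376 bases with SRFBP1 on the opposite strand. SRFBP1 was at 28.0, 29.9 and 38.5 FPKM without doxycycline and at 15.8, 33.9 and 33.8 FPKM with it, so the groups overlapped for this neighbor. Whether strand was used in counting is not given in the sources used here.

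LOXL2, a lysyl oxidase that acts on type IV collagen, was the other member of its family with a large difference. It was at 4.0, 3.69 and 6.34 FPKM without doxycycline and at 44.3, 105 and 59.8 FPKM with doxycycline. The groups did not overlap, and the means of 4.68 ± 1.45 and 69.6 ± 31.3 FPKM (SD, n = 3) had a ratio of 14.9 (log2 fold change 3.57, standard error 0.32). LOXL2 (ENSG00000134013) spans 23154410 to 23282841 on the minus strand of chromosome 8 in GRCh37. It shares 39546 bases with ENTPD4 on the same strand and 29955 with LOXL2-AS1 on the opposite strand. ENTPD4 was at 21.6, 20.04 and 21.8 FPKM without doxycycline and at 23.2, 30.1 and 33.9 FPKM with it, higher in each EWSR1::FLI1-low library like LOXL2, with a smaller difference. Whether reads were exchanged between these genes was not tested. By the size of its increase LOXL2 was at rank 35 of the genes tested, and LOX at rank 5.

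LOXL1, which is needed for the upkeep of elastic fibers, was the most abundant lysyl oxidase in EWSR1::FLI1-high cells. Its levels were 17.9, 15.4 and 19.1 FPKM without doxycycline and 28.1, 25.2 and 37 FPKM with doxycycline. The groups were close but did not overlap, with a ratio of means of 1.72 (log2 fold change 0.74, standard error 0.20, not called). The antisense gene LOXL1-AS1, which shares 2260 bases with it, stayed between 3.8 and 5.89 FPKM in all 6 libraries.

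LOXL3 and LOXL4 were the least abundant of the 10 genes, and LOXL4 was close to the limit of detection. LOXL3 was at 0.679, 0.298 and 0.647 FPKM without doxycycline and at 2.26, 1.38 and 1.2 FPKM with it, from 9 to 76 reads per library. The ratio of means was 2.98 (log2 fold change 0.75, standard error 0.20, not called). With a pseudocount of 0.1 the log2 fold change was 1.43 and with limma-voom 1.52, each on its own scale and not called. LOXL4 was at 0.156, 0.172 and 0.0353 FPKM without doxycycline and at 0.646, 0.50 and 0.456 FPKM with it, from 6, 5 and 1 reads and 21, 15 and 26 reads. A floor of 3 reads corresponds to between 0.0526 and 0.106 FPKM for LOXL4, so 1 EWSR1::FLI1-high library was below it, and no ratio is given. Both genes were highest in EWSR1::FLI1-low replicate 1. That library also had the highest FPKM of the 3 EWSR1::FLI1-low libraries for 64.9% of the 2926 tested genes with a mean under 1 FPKM, and for 5 of the 8 markers of other cell types. The part of this in the values of LOXL3 and LOXL4 was not tested.

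The make-up of the family differed along with its total. The FPKM of the 5 lysyl oxidases summed to 24.5 ± 3.47 in EWSR1::FLI1-high and 229 ± 99.5 in EWSR1::FLI1-low cells (SD, n = 3). LOXL1 made up between 67.9% and 73.6% of the sum in the EWSR1::FLI1-high libraries and between 7.82% and 22.6% in the EWSR1::FLI1-low libraries. The share of LOX was 6.59%, 7.57% and 7.15% without doxycycline, and 39.4%, 59.2% and 59.2% with doxycycline. LOXL2 held 18.8% ± 3.28 and 31.0% ± 5.56 (SD, n = 3). LOX thus replaced LOXL1 as the leading lysyl oxidase transcript in all 3 EWSR1::FLI1-low libraries.

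**Figure D2:**
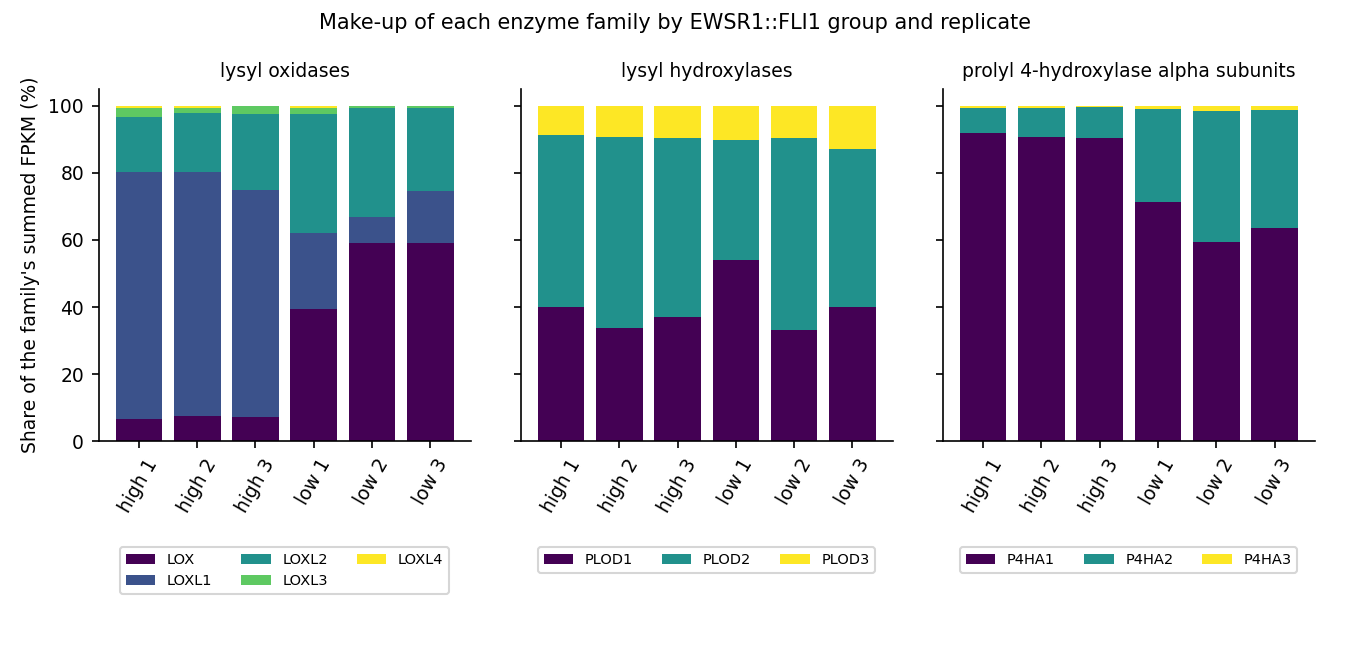
Share of each gene in the summed FPKM of its family (percent, stacked bars) in the 6 libraries, with high and low for EWSR1::FLI1-high and EWSR1::FLI1-low and the replicate number. LOX takes 39.4% to 59.2% of the lysyl oxidases in EWSR1::FLI1-low cells, P4HA2 takes 28.0% to 39.3% of the alpha subunits, and PLOD2 holds from 35.9% to 57.5% of the lysyl hydroxylases over all libraries.

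Among the lysyl hydroxylases, PLOD1, which hydroxylates lysine in the triple helix, differed most steadily. It was at 24.0, 20.3 and 22.1 FPKM without doxycycline and at 40.1, 55.4 and 48.3 FPKM with doxycycline. The groups did not overlap, and the ratio of means was 2.17 (log2 fold change 1.07, standard error 0.19, called). PLOD1 (ENSG00000083444) spans 11994262 to 12035595 on the plus strand of chromosome 1 in GRCh37. PLOD1 lost its call when any 1 library other than EWSR1::FLI1-low replicate 1 was removed, that is in 5 of 6 cases.

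PLOD2, the enzyme that hydroxylates lysine in the telopeptides at the chain ends, was the only one of the 9 genes tested whose groups overlapped, against 17.5% of all genes tested with EWSR1::FLI1-low wholly above and 23.6% with it wholly below. PLOD2 (ENSG00000152952) spans 145752926 to 145881512 on the minus strand of chromosome 3. It was very even in EWSR1::FLI1-high cells, at 30.9, 34.1 and 31.6 FPKM. In EWSR1::FLI1-low cells it spread from 26.7 FPKM in replicate 1, below every EWSR1::FLI1-high library, to 96.4 FPKM in replicate 2 and 56.9 FPKM in replicate 3. The highest of these was 3.61 times the lowest. No scaling between libraries was added to that of the authors. By median ratios, the scale of EWSR1::FLI1-low replicate 1 was 0.866, against 0.983 to 1.08 in the other libraries. The place of PLOD2 in this replicate below the EWSR1::FLI1-high libraries therefore depends on the scaling. The difference between the groups was not called (log2 fold change 0.70, standard error 0.39). Without EWSR1::FLI1-low replicate 1 it was 1.18 and was called, so the call depended on this library. That fit called 1527 of 14907 genes tested higher, against 700 of 15504 with all 6 libraries. The same fit stands behind the other calls given below without this replicate.

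PLOD3, which also has glycosyltransferase activity, was the least abundant of the 3. It was at 5.15, 5.65 and 5.77 FPKM without doxycycline and at 7.56, 15.9 and 15.4 FPKM with it. The groups did not overlap (ratio of means 2.34, log2 fold change 1.03, standard error 0.26, not called), and without EWSR1::FLI1-low replicate 1 the log2 fold change was 1.35 and was called. The FPKM of the 3 genes summed to 60.04, 60.02 and 59.4 without doxycycline and to 74.4, 168 and 121 with doxycycline. PLOD2 made up 53.8% ± 2.75 and 46.9% ± 10.8 of the sum (SD, n = 3), so its share differed by less than the spread of the EWSR1::FLI1-low libraries.

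P4HA1 and P4HA2, alternative catalytic subunits of prolyl 4-hydroxylase, differed by very unequal amounts. P4HA2 was at 4.37, 5.98 and 6.11 FPKM without doxycycline and at 28.9, 82.4 and 56.2 FPKM with doxycycline. The lowest EWSR1::FLI1-low library was 4.72 times the highest EWSR1::FLI1-high library, and the means of 5.49 ± 0.97 and 55.8 ± 26.8 FPKM (SD, n = 3) had a ratio of 10.2 (log2 fold change 3.02, standard error 0.34, called). P4HA1 was at 54.6, 62.4 and 58.7 FPKM without doxycycline and at 73.5, 124 and 102 FPKM with it. These groups did not overlap either, but the ratio of means was 1.70 (log2 fold change 0.73, standard error 0.22, not called). P4HA1 was called without EWSR1::FLI1-low replicate 1, at a log2 fold change of 0.93, and with quantile normalization, also at 0.93.

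P4HA1 remained the more abundant subunit in every library, while its lead shrank. P4HA1 was 12.5, 10.4 and 9.61 times P4HA2 without doxycycline and 2.55, 1.51 and 1.81 times with doxycycline. P4HA2 (ENSG00000072682, chromosome 5, 131525840 to 131631008, minus strand, GRCh37) shares 15759 bases with PDLIM4 on the opposite strand. PDLIM4 was at 1.33, 1.91 and 1.07 FPKM without doxycycline and at 4.02, 10.6 and 7.16 FPKM with it, also without overlap. Reads in the shared bases could be exchanged between the genes if strand was not used in counting, and this was not tested.

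**Figure D3:**
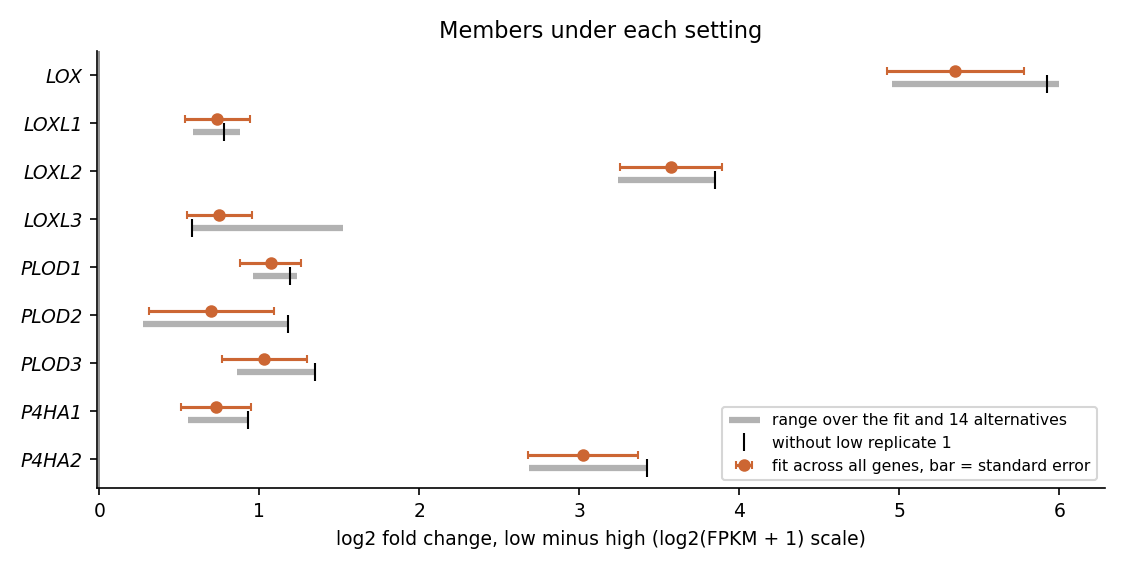
Log2 fold change (EWSR1::FLI1-low minus EWSR1::FLI1-high, log2(FPKM + 1) scale) of the 9 enzyme genes tested, with the standard error (orange), the range over the fit and its 14 alternatives (grey, with a pseudocount of 0.1 and limma-voom on their own log2 scales) and the value without EWSR1::FLI1-low replicate 1 (black tick). LOX stays between 4.96 and 5.997, LOXL2 between 3.24 and 3.85 and P4HA2 between 2.68 and 3.42, while PLOD2 ranges from 0.27 to 1.18.

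The enzyme genes also varied within the EWSR1::FLI1-low group. Replicate 1 had the lowest level of the 3 for 7 of the 10 genes, and replicate 2 had the highest for 7. Replicate 1 was the lowest for 57.0% of all genes tested, and for 81.5% of the 6427 genes with a mean of at least 10 FPKM, so a low value there was common among abundant genes. The sizes differed among the enzymes. LOX in replicate 1 was at 0.294 of the mean of replicates 2 and 3, PLOD2 at 0.349, P4HA2 at 0.416 and LOXL2 at 0.539, while the median of the 6427 abundant genes was 0.703. Only 1.21% of these genes had a lower ratio than LOX, and 2.09% a lower ratio than PLOD2. LOXL1 and PLOD1, at 0.903 and 0.774, were above the median. FLI1 was lowest in the same replicate 1, at 2.91 FPKM. These ratios compare single libraries, depend on the scaling between libraries and carry no test.

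Over the 6 libraries, the genes most like LOX by Pearson's correlation of log2(FPKM + 1) were FAM114A1 (r = 0.9994), BDNF (0.9993), CHPF (0.9991), TANC1 (0.9989) and TFPI (0.9988). In total 124 of the genes tested had r over 0.99 with LOX, so these genes do not stand apart from many others, and the libraries share their group and depth. Among the other enzymes, r with LOX was 0.995 for P4HA2, 0.991 for LOXL2 and PLOD1 and 0.714 for PLOD2.

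The enzymes and chaperones that work beside these genes in the endoplasmic reticulum were examined as a list of 16, all of which were tested. Of these, 4 rose (FKBP10, P3H1, SLC39A13 and P3H4, adjusted p under 0.01, limma) and none was called lower. Of all genes tested, 4.51% were called higher and 3.37% lower. This list and those below were chosen with earlier results of these data known, so the counts only describe them. At an unadjusted p under 0.05, 1 gene of the list, TMEM38B, was lower, and limma-voom called none of the list lower. FKBP10, a chaperone known to act with PLOD2 on telopeptide lysines, rose from 6.49 ± 0.76 to 23.4 ± 2.35 FPKM (SD, n = 3; log2 fold change 1.71, adjusted p = 0.000389, limma). Unlike PLOD2, FKBP10 was even among the EWSR1::FLI1-low libraries, at 21.1, 25.8 and 23.4 FPKM. P3H1, which hydroxylates single prolines at the third carbon, rose from 20.5 ± 2.15 to 54.3 ± 6.26 FPKM (log2 fold change 1.36, adjusted p = 0.0015, limma). SLC39A13, a zinc transporter whose loss impairs collagen hydroxylation, rose from 9.48 ± 0.83 to 21.7 ± 3.47 FPKM (log2 fold change 1.11, adjusted p = 0.00447, limma). P3H1 lost its call when any 1 EWSR1::FLI1-high replicate was removed (adjusted p at most 0.0159), and SLC39A13 when any 1 library other than EWSR1::FLI1-low replicate 1 was removed (adjusted p at most 0.0329). Leaving out 1 library at a time gave 1 to 9 called genes in this list, the highest without EWSR1::FLI1-low replicate 1 and the lowest without any one EWSR1::FLI1-high replicate.

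P4HB, the partner of both alpha subunits, was far more abundant than P4HA2, at 103, 104 and 123 FPKM without doxycycline and at 141, 236 and 209 FPKM with doxycycline. The difference was not called (log2 fold change 0.80, adjusted p = 0.0349, limma), but was called without EWSR1::FLI1-low replicate 1 (1.01, adjusted p = 0.00102). With all 6 libraries it was also called with median-ratio scaling (0.88, adjusted p = 0.00617, limma) and with quantile normalization (1.02, adjusted p = 0.000853, limma). P4HB was 1.71 ± 0.19 times the summed alpha subunits P4HA1, P4HA2 and P4HA3 in EWSR1::FLI1-high cells and 1.27 ± 0.12 times in EWSR1::FLI1-low cells (SD, n = 3). P4HA3, the remaining alpha subunit, stayed low, at 0.373, 0.382 and 0.168 FPKM without doxycycline and at 0.880, 3.08 and 2.12 FPKM with it. It was not called (log2 fold change 1.14, adjusted p = 0.0196, limma), except without EWSR1::FLI1-low replicate 1 (1.45, adjusted p = 0.000999).

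Of 15 genes for procollagen processing and for matrix proteins that bind or position lysyl oxidases, 12 were tested and 7 rose (limma). Of all genes tested, 4.51% were called higher. No gene of the list was called lower (limma, and limma-voom), and none was lower at an unadjusted p under 0.05 (limma). BMP1, the proteinase that releases active LOX from its propeptide and also trims procollagen, rose from 2.79 ± 0.20 to 13.99 ± 4.82 FPKM (SD, n = 3; log2 fold change 1.93, adjusted p = 0.00117, limma). POSTN encodes periostin, a matrix protein that binds BMP1. It rose from 2.17, 4.97 and 3.90 FPKM to 80.3, 261 and 285 FPKM (log2 fold change 5.33, adjusted p = 0.000207, limma). Like LOX, POSTN was low in EWSR1::FLI1-low replicate 1, at 0.294 of the mean of replicates 2 and 3. SPARC, a collagen-binding glycoprotein, rose from 120 ± 7.52 to 420 ± 28.2 FPKM (log2 fold change 1.80, adjusted p = 0.000184, limma). LOX RNA was 0.62 ± 0.037 times that of BMP1 in EWSR1::FLI1-high cells and 8.53 ± 2.55 times in EWSR1::FLI1-low cells. Without any 1 EWSR1::FLI1-high replicate, 3 or 4 genes of this list were called.

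The substrates were examined as 17 fibrillar and type IV collagen chains, of which 12 were tested and 7 rose (limma). Of all genes tested, 4.51% were called higher. No chain was called lower (limma, and limma-voom), and none was lower at an unadjusted p under 0.05 (limma). The largest increases were those of COL11A1, COL1A2 and COL3A1, with log2 fold changes of 4.81, 3.99 and 3.21 (adjusted p = 0.000116, 5.03e-05 and 4.54e-05, limma). Within the EWSR1::FLI1-low group the 7 chains that rose differed among themselves. Replicate 1 was the highest of the 3 libraries for 3 of them (COL1A1, COL1A2 and COL3A1) and the lowest, as for LOX, for 4 (COL4A1, COL4A2, COL5A1 and COL11A1), a grouping made after the values were seen. COL1A2 was at 50.2, 27.6 and 31.5 FPKM with doxycycline and COL3A1 at 262, 191 and 184 FPKM, highest where LOX was lowest. COL11A1 was at 24.7, 53.3 and 85.7 FPKM, lowest where LOX was lowest. COL3A1 was 14.9, 12.6 and 10.6 times LOX without doxycycline, and 5.34, 1.00 and 1.29 times with doxycycline.

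**Figure D4:**
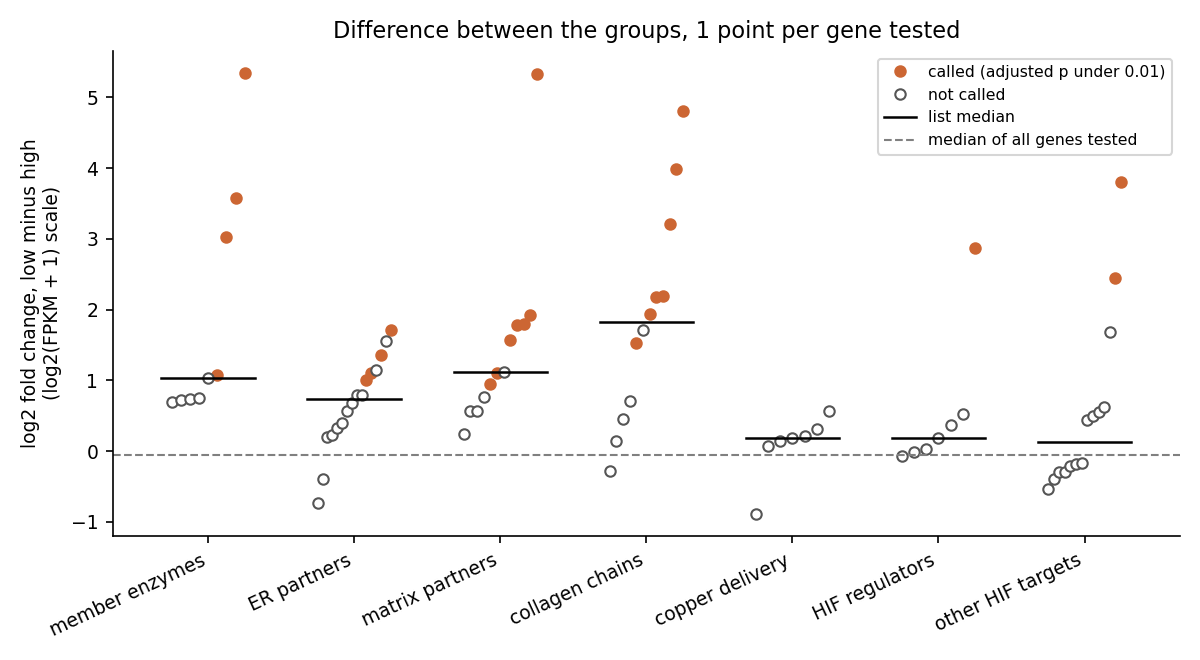
Log2 fold change (EWSR1::FLI1-low minus EWSR1::FLI1-high, log2(FPKM + 1) scale) of each gene tested, for the enzyme genes and the lists of partner, substrate, copper and HIF genes, with called genes filled, list medians as bars and the median of all genes tested as a dashed line. The list medians are 1.03 for the enzyme genes, 1.83 for the collagen chains, 0.19 for copper delivery and 0.13 for other HIF targets.

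Copper reaches the lysyl oxidases through uptake carriers, a chaperone and the pump ATP7A. None of the 7 copper genes tested was called in either direction (limma, and limma-voom), and at an unadjusted p under 0.05 none was higher and 1, COX17, was lower. ATP7A, which loads copper onto secreted enzymes, was at 7.82, 7.24 and 6.78 FPKM without doxycycline and at 8.57, 8.15 and 8.62 FPKM with it. These groups did not overlap, as was the case with EWSR1::FLI1-low above EWSR1::FLI1-high in 17.5% and below it in 23.6% of all genes tested. COX17, which serves the mitochondrial oxidase, was at 155 ± 4.43 and 86.7 ± 28.8 FPKM (SD, n = 3; log2 fold change -0.89, adjusted p = 0.0372, limma) and was called with quantile normalization. ATP7A and COX17 were singled out after their values were seen.

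HIF genes were set beside the enzymes known as HIF targets. Of 8 regulators 7 were tested, and 1, EPAS1, which encodes HIF-2alpha, rose, where 4.51% of all genes tested were called higher. EPAS1 was at 0.240, 0.267 and 0.275 FPKM without doxycycline and at 7.79, 10.7 and 6.56 FPKM with it (log2 fold change 2.87, adjusted p = 6.09e-05, limma). HIF1A was abundant in both groups, at 118, 115 and 135 FPKM and at 109, 208 and 177 FPKM, and was not called (log2 fold change 0.38, adjusted p = 0.316, limma), except without EWSR1::FLI1-low replicate 1 (0.65, adjusted p = 0.00835). In that fit 3 of the regulators were called higher, as were 1527 of all 14907 genes tested there. No regulator was called lower (limma, and limma-voom), and none was lower at an unadjusted p under 0.05.

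Of 15 other HIF targets, 14 were tested and 2 rose, ADM (adrenomedullin) and NDRG1, where 4.51% of all genes tested were called higher. ADM rose from 1.498 ± 0.50 to 33.9 ± 7.07 FPKM (SD, n = 3; log2 fold change 3.803, adjusted p = 3.66e-05, limma). NDRG1 rose from 1.28 ± 0.45 to 13.0 ± 7.93 FPKM (log2 fold change 2.44, adjusted p = 0.00496, limma), a call that was lost without any 1 EWSR1::FLI1-high replicate or without EWSR1::FLI1-low replicate 3 (adjusted p at most 0.0262). None was called lower (limma, and limma-voom) or was lower at an unadjusted p under 0.05. The median log2 fold change of the 14 genes was 0.13, with 7 above and 7 below 0. Among the enzyme genes known as HIF targets it was 5.35 for LOX, 3.57 for LOXL2, 3.02 for P4HA2, 0.73 for P4HA1 and 0.70 for PLOD2. Within the EWSR1::FLI1-low group, replicate 1 was the lowest for 13 of the 15 genes and replicate 2 the highest for 11, as for 7 and 7 of the 10 enzyme genes. Of all genes tested, replicate 1 was the lowest of the 3 for 57.0% and replicate 2 the highest for 26.2%. Among genes with a mean of at least 10 FPKM these shares were 81.5% and 25.7%. The part of HIF in the levels of the enzymes was not tested.

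**Figure D5:**
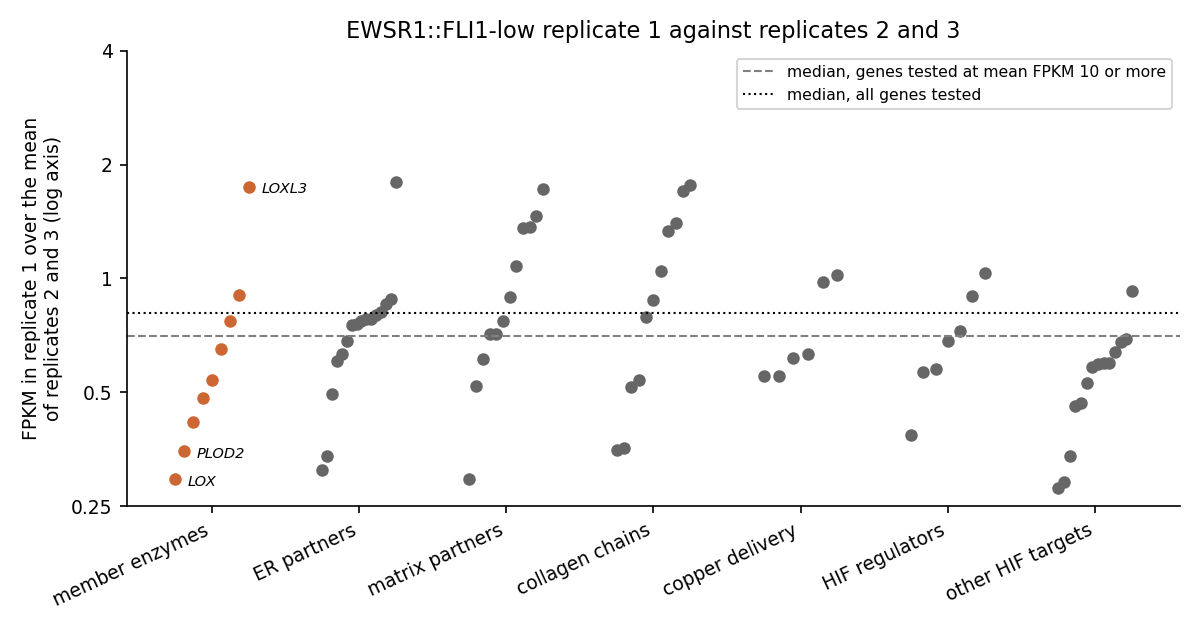
FPKM in EWSR1::FLI1-low replicate 1 over the mean of replicates 2 and 3 (log axis), for genes of each list with a mean of at least 1 FPKM in EWSR1::FLI1-low cells, with the enzyme genes in orange and the medians of all genes tested (dotted) and of genes with a mean of at least 10 FPKM (dashed). LOX is at 0.294 and PLOD2 at 0.349, the enzyme genes reach up to LOXL3 at 1.74, and the collagen chains extend from 0.352 to 1.77.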

How the data were processed

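RNAseq of 6 samples was analyzed, 3 per condition, grouped by their titles. The authors aligned paired-end reads to GRCh37 with STAR (2.5.0b per the labels), quantified with Cufflinks 2.2.1, and FPKM values were deposited for each library. From the authors' deposited DESeq2 table, the mean signal (mean normalized count) of each gene was used, and its fold changes and p-values were not. With this mean, all FPKM values above 0 became whole reads within 0.1 reads in each library, which gave the reads per gene. The floor of 3 reads covers counting error only. The fit took the 15504 genes averaging 0.5 FPKM or more and used limma 3.58.1 in R 4.3.3 (eBayes with trend) on log2(FPKM + 1), with Benjamini-Hochberg adjustment over all genes tested and the study's limit of 0.01 for the adjusted p. The authors' test, DESeq2, was not used. The deposited values per library are FPKM, so limma on a log scale was the main fit, and limma-voom was run on the recovered reads. The replicates of a condition differed by more than sampling noise (chi-square per degree of freedom 4.25 to 31.5), so each counted as 1 replicate.

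The limma fit across all genes was first run on simulated counts in which some genes were changed. Alternatives were limma-voom on the recovered reads, a pseudocount of 0.1, no filter or one at 1 FPKM, scaling by median ratios over the genes tested or by quantiles, an untrended eBayes prior, the replicate number as a block, and the removal of each library in turn. The named genes are the 10 enzyme genes, FLI1, EWSR1, P4HA3, P4HB, BMP1, HIF1A, up to 3 called genes per list and direction with the largest change, and the 5 genes most correlated with LOX. The enzyme genes and all lists were chosen with earlier results of these data known. Positions are from GENCODE v44 lifted to GRCh37, and promoter sequences from RefSeq (GRCh38.p14). EWSR1 was at 91.5 ± 13.9 FPKM without and 65.1 ± 16.0 FPKM with doxycycline (SD, n = 3; log2 fold change -0.50, adjusted p = 0.159, limma). Other steps used Python 3.11.15, pandas 2.3.3, scipy 1.17.1 and matplotlib 3.10.9.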

Additional observations from a re-analysis of the deposited data

How the results depend on the processing

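LOX, LOXL2 and P4HA2 were called higher in the fit and in 13 of its 14 alternatives, all except the fit without a filter on low values. There limma called 89 genes higher and 35 lower among 26364, and 0 of the enzyme genes, of which 8 were higher at an unadjusted p under 0.05. FLI1, with a log2 fold change of -1.57, then had an adjusted p of 0.0157 (limma), and the lists gave 1 partner of the endoplasmic reticulum, 1 matrix partner, 2 collagen chains and 1 other HIF target. No alternative reversed the direction of any of the 9 enzyme genes tested, of FLI1 or EWSR1, or of the genes named from the lists by the rule. LOXL4 entered only the fit without a filter, and the 5 genes most correlated with LOX were not followed through the alternatives. With quantile normalization 7 enzyme genes and 8 partners of the endoplasmic reticulum were called higher and 1 copper gene lower. Of all genes, 992 were then called higher and 1000 lower, against 700 and 522 in the main fit. Median-ratio scaling gave 6 enzyme genes and 8 partners of the endoplasmic reticulum, with 991 of all genes higher and 808 lower. Limma-voom gave 4 enzyme genes, with 945 of all genes higher and 784 lower. The causes of these differences were not tested. Leaving out each library gave 308 to 1527 higher and 157 to 807 lower genes, with the most of both without EWSR1::FLI1-low replicate 1. The enzyme genes called higher numbered 3 to 7 (7 in that same fit) and the partners of the endoplasmic reticulum 1 to 9. Matrix partners numbered 3 to 8, collagen chains 6 to 9, HIF regulators 1 to 3 and other HIF targets 1 or 2. FLI1 stayed between -1.68 and -1.46 in these fits.

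With the replicate number as a block, 4 enzyme genes were called, as without it. Of all genes, 916 were called higher and 786 lower, against 700 and 522 without the block. After subtraction of the group means, libraries with the same number had r = 0.27, 0.089 and 0.12 over genes. Libraries with different numbers had r between -0.289 and 0.189. With 3 numbers, whether they mark pairs of samples cannot be told from these values. Not every library correlated best with its own number, since EWSR1::FLI1-high replicate 3 was closest to EWSR1::FLI1-low replicate 2 (r = 0.19). The block changed no call of the enzyme genes. At the depth of these libraries LOXL4, with 1 to 26 reads, could not be compared.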
